A study of Mus musculus with 9 samples.

Results

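The subject here is how the effect of losing Spo11 on the juvenile mouse testis differed between 2 ages. All 9 arrays of the series entered it, 4 from mice of 15 days and 5 from mice of 12 days. A feature is a gene, or a probe with no gene or several genes listed. It was kept with at least 3 values at 15 days and at least 4 at 12 days. That left 9851 of 13641 features, among them 6144 of the 7117 genes on the arrays and 3707 probes with no gene or several genes. The members were therefore fixed by the number of values alone. Whether spots without a value were those of low signal was not tested.

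Each array set RNA of a whole testis of Spo11-/- mice against RNA of a wild-type testis of the same age, in 2 colours. The knockout carried the green dye Cy3 on all 4 arrays at 15 days and on replicates 2 and 3 at 12 days, and the red dye Cy5 on replicates 1, 4 and 5 at 12 days. Per the series' design text the mice came in pairs from 1 litter and each experiment had 4 different pairs, so some of the 5 arrays at 12 days may share mice and p-values measure the spread between arrays only. No source used here gives the strain or the Spo11 allele, and replicate numbers follow the order of deposit. A 2-colour ratio gives no level, so neither the tissue nor the deletion could be checked by a marker's level, and Spo11 itself was not analysed here.

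SPO11 is the enzyme that cuts both strands of DNA to begin meiotic recombination, and the breaks it makes let homologous chromosomes find each other and pair. Spermatocytes that lack it do not pair their chromosomes properly and are lost around the pachytene stage, when the sex chromosomes are normally silenced and many genes of the later sperm switch on. The first wave of meiosis moves through the young testis nearly in step, so a testis of 15 days holds later spermatocytes than a testis of 12 days. In whole tissue, fewer cells of a type and less RNA per cell cannot be told apart.

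The direction of the 15-day ratios is not settled, and every result is given under 2 readings. Under the label reading each deposited value is the log2 of Cy5 over Cy3, turned to knockout over wild type by the labelled dyes. Under the turned reading the sign of the 4 arrays at 15 days is reversed. The reason is that arrays of the same labelled dye orientation went against each other between the ages. Over all features the 15-day arrays correlated with each other at r from 0.39 to 0.61, but with 12-day replicate 3 at r from -0.39 to -0.34 and with replicate 2 at r from -0.27 to -0.10. Against replicates 1, 4 and 5, whose dyes are opposite, the knockout ratios of the 15-day arrays correlated at r from -0.02 to 0.24 under the label reading. The 12-day arrays also went against each other in part, with knockout ratios correlated at r from -0.29 to -0.00 between opposite dye orientations and from -0.12 to 0.45 within 1 orientation. These correlations run across features of 9 arrays and describe only the deposited values.

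The fit had an effect for each age and a dye effect for each gene. Since only the 12-day arrays held both dye orientations, the estimated difference is the mean of the 4 arrays at 15 days minus the mean of 12-day replicates 2 and 3. Replicates 1, 4 and 5 entered the estimate of the spread alone. Leaving out 1 of these changes the spread and not the difference, so such a fit is no check of the difference. Leaving out replicate 2 or 3 sets the 15-day arrays against 1 array of 12 days. A difference keeps its sign under both readings only where the mean of 12-day replicates 2 and 3 lies farther from 0 than the 15-day mean does. This held for 2370 of the 6144 genes, or 38.6%.

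Under the label reading, 8 genes of the sperm tail and of late spermatocytes were among those with a higher knockout ratio at 15 days than at 12. The recombination gene Mnd1 and 8 X-linked genes were among those with a lower one. Of 9851 features, 231 (2.34%) differed by limma at a Benjamini-Hochberg adjusted p under 0.05, 129 higher at 15 days (1.31%) and 102 lower (1.04%). Of the 6144 genes, 101 were higher (1.64%) and 39 lower (0.635%). Turning the 15-day sign left 0 calls (0%) by limma. The smallest adjusted p was then 0.0875, and 650 features (6.6%) had an unadjusted p below 0.05. The median 95% interval reached 0.46 to either side of a feature's estimate, on the log2 scale.

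**Figure D1:**
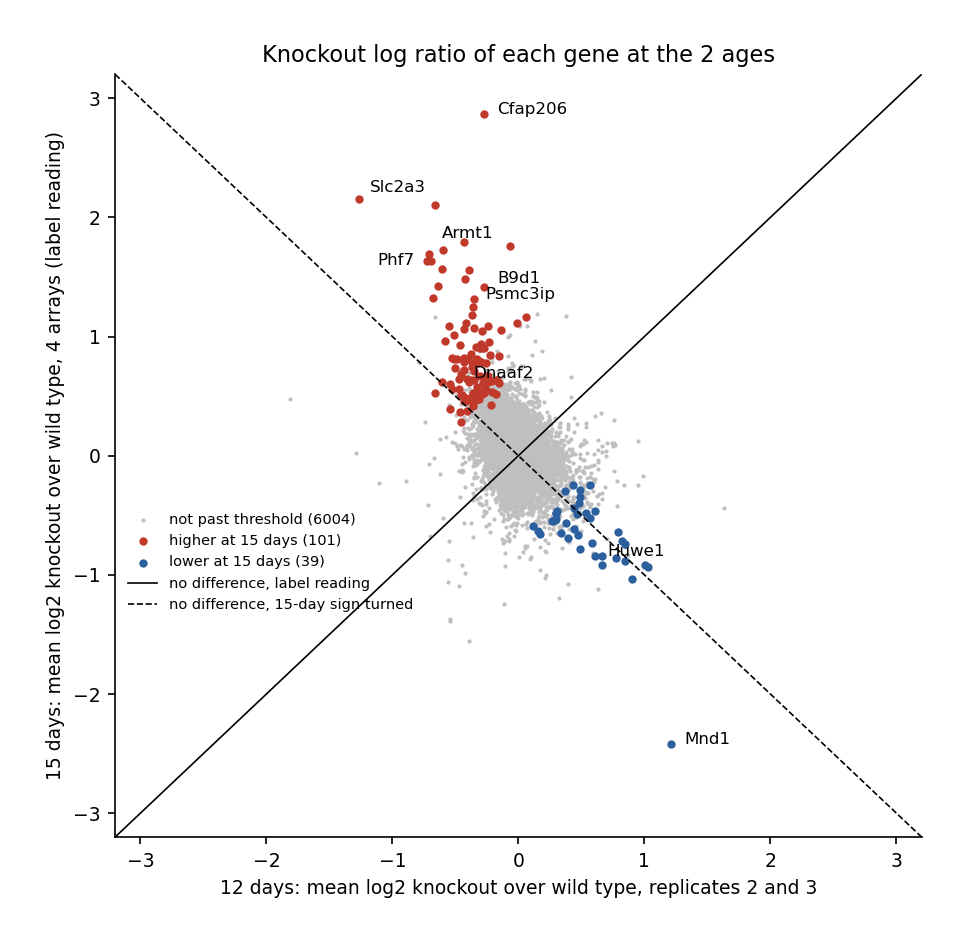
Each point is 1 of the 6144 genes, with its mean log2 knockout over wild-type ratio in 12-day replicates 2 and 3 on the x axis and in the 4 arrays at 15 days on the y axis, under the label reading. Points on the solid diagonal would not differ between the ages under that reading and points on the dashed one would not with the 15-day sign turned; all 39 blue points and 100 of the 101 red ones lie on opposite sides of 0 at the 2 ages, and Mnd1, at 1.22 and -2.42, stands farthest to the lower right.

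What these calls were made of differed by direction. Of the 101 genes that were higher, 100 had means on opposite sides of 0 at the 2 ages, with a median of 0.78 at 15 days and -0.37 in 12-day replicates 2 and 3. The ages did not overlap on the arrays with a value for 80 of them, where 7.01% of all genes did so in that direction. In replicates 1, 4 and 5, which did not enter the estimate, their median was 0.08, and the 15-day mean lay above the mean of those replicates in 101 of 101. The 39 lower genes had a median of -0.62 at 15 days, 0.49 in replicates 2 and 3 and -0.36 in replicates 1, 4 and 5. For 14 of these 39 the ages did not overlap, against 3.61% of all genes, and 29 of 39 had the same direction against replicates 1, 4 and 5. Genes of both directions were called on the same 15-day values that these counts use again. The counts therefore describe the calls and give them no separate support. Turned, the median difference of the 101 genes was -0.40 and that of the 39 was 0.15. The ages then did not overlap for 2.12% of all genes with a higher and 4.22% with a lower ratio at 15 days.

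Mnd1 had the lowest difference of all genes. It encodes a subunit of the MND1 and PSMC3IP (HOP2) complex, which acts in the strand exchange step of meiotic recombination. Its log2 ratio was -2.33, -1.86, -2.13 and -3.37 on the 4 arrays at 15 days and 1.39, 0.64, 1.79, 1.96 and 1.87 on replicates 1 to 5 at 12 days. Every array of 15 days, all with the knockout in Cy3, lay below 0. Every array of 12 days lay above it, in both dye orientations. The difference was -3.64 (SE 0.41, adjusted p = 0.0065), or 12.4-fold. Turning the 15-day sign puts all 9 arrays above 0 and makes the ages overlap, with a difference of 1.21 (adjusted p = 0.74). Leaving out 1 array at a time, each of the 9 label-reading fits passed, with -4.21 (12-day replicate 2 left out) and -3.06 (replicate 3 left out) as the extremes. None of the turned fits passed, and their extremes, with the same arrays left out, were 0.63 and 1.78.

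Psmc3ip, the gene of its partner protein, differed in the other direction. It lay at 1.45, 1.17, 1.28 and 1.08 at 15 days and at -0.35, 0.20, -0.92, 0.25 and 0.16 at 12 days, without overlap. The difference was 1.60 (SE 0.28, adjusted p = 0.025) under the label reading and -0.89 (adjusted p = 0.74) with the sign turned, where the ages did not overlap either. Syce1, a protein of the central element of the synaptonemal complex, was higher by 0.92 (adjusted p = 0.043; turned, -0.41). Brca2, which loads recombinases onto DNA, lay at 0.81 but missed the threshold (adjusted p = 0.060; turned, -0.67). Exo1 missed it on the lower side, at -0.675 (adjusted p = 0.062) and at 0.225 turned. So did Mei1, at -0.97 (adjusted p = 0.067) and at 0.50 turned. Mnd1, Psmc3ip and Syce1 were the only calls among 31 genes of meiotic recombination and synapsis tested, 2 higher and 1 lower. Of all genes 1.64% were called higher and 0.635% lower. The median over the 31 was 0.08 under the label reading and -0.09 turned, beside 0.04 and -0.03 over all genes. Psmc3ip was not called without 12-day replicate 3 (1.05, adjusted p = 0.12) or without 15-day replicate 1, 2 or 3, and the median turned to -0.11 without 12-day replicate 2.

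Phf7 and Armt1 were the other named genes called in each of the 9 fits that left out 1 array. Phf7, a chromatin reader of the male germ line, lay at 1.33, 1.69, 2.09 and 1.43 at 15 days and at 0.12, -0.25, -1.13, 0.01 and 0.14 at 12 days. Its lowest value at 15 days stood above its highest at 12 days by more than the range of the 15-day arrays. The difference was 2.33 (SE 0.26, adjusted p = 0.0065) and lay between 1.88 and 2.77 over the leave-one-out fits. Turned, it was -0.94 (adjusted p = 0.73), and the ages again did not overlap. Armt1, an acidic residue methyltransferase, lay at 2.04, 1.99, 1.64 and 1.09 at 15 days and at 0.08, -0.39, -1.03, 0.06 and 0.73 at 12 days. Its difference was 2.40 (SE 0.30, adjusted p = 0.012), and -0.98 (adjusted p = 0.74) turned. Without 12-day replicate 3 it was 2.08, with an adjusted p of 0.0498. Dnaaf2, which helps to assemble the dynein arms of the axoneme, lay at 0.67, 0.74, 0.76 and 0.58 at 15 days and at 0.07, -0.33, -0.58, 0.06 and -0.05 at 12 days. Its difference of 1.14 (SE 0.15, adjusted p = 0.012; turned, -0.23) passed in 8 of 9 such fits and missed in the fit without 12-day replicate 3 (1.02, adjusted p = 0.067).

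The promoters of Mnd1, Phf7, Armt1 and Dnaaf2 are shown because these are the genes described above that held their call in at least 8 of the 9 leave-one-out fits. Mrgbp, which did so in 8, is not among the genes named by rule and is not shown. Each promoter is the 300 bases around the gene's start on its own strand, mostly upstream of it, from RefSeq on GRCm38.p6. Capitals mark CCGTTG and CAGTTG, core letters bound by MYB proteins, and GTTGCC, part of the X-box bound by RFX proteins. All were searched on both strands, and they share the letters GTTG, so that matches can overlap. The Mnd1 window is chr3:84155737-84156036 on the minus strand and holds none of these letters. The Phf7 window, chr14:31251266-31251565 on the minus strand, holds CCGTTG. The Armt1 window, chr10:4432355-4432654 on the plus strand, holds CCGTTG and CAGTTG. The Dnaaf2 window, chr12:69198380-69198679 on the minus strand, holds GTTGCC.
Mnd1: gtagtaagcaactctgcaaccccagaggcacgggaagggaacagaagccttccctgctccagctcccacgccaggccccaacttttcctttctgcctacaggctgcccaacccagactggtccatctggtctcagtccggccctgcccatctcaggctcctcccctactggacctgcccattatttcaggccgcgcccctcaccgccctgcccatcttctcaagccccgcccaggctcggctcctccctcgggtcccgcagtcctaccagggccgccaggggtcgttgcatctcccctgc
Phf7: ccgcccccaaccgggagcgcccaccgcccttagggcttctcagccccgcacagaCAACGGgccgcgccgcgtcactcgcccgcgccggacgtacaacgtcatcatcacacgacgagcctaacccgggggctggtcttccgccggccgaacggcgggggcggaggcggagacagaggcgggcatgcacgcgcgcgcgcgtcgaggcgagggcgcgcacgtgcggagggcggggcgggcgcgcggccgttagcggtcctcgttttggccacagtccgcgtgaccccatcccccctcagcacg
Armt1: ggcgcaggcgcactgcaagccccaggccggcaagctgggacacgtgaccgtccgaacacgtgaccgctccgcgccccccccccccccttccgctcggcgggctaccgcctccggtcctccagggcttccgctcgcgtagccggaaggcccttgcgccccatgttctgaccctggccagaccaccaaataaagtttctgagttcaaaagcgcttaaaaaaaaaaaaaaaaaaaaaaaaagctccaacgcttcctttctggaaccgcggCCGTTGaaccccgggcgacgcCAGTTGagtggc
Dnaaf2: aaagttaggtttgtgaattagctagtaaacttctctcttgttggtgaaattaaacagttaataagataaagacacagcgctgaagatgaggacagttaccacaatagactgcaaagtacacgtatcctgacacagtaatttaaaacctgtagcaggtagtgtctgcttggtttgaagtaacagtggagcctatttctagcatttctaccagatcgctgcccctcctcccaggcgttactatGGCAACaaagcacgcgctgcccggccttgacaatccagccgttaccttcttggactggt
The sequence table matched 4988 of the 6144 genes, with 6406 promoters of 300 bases. GTTGCC stood in 18.1% of 105 promoters of genes that were higher, in 14.7% of 34 promoters of genes that were lower and in 12.6% of all 6406. CCGTTG or CAGTTG stood in 21.9%, 14.7% and 16.6%. These shares describe letters in a window and were not tested.

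Markers of pachytene spermatocytes and genes of the axoneme, the microtubule core of cilia and sperm tails, made up 8 of the calls, all of them higher at 15 days. Of 14 pachytene markers listed, 5 were on the arrays and 4 were tested, so most of the list could not be seen. Of these 4, Slc2a3, Rsph1 and Lyar were higher and Mybl1, a MYB factor of meiosis, lay at 0.10 (adjusted p = 0.73). Of 87 axoneme genes listed 13 were tested, and of these 6 were higher and 0 lower. Over all genes 1.64% were higher and 0.635% lower. The axoneme gene Ak7 lay on the other side at -1.015 and narrowly missed the threshold (adjusted p = 0.053), with 0.585 turned. The median difference was 2.25 over the pachytene markers and 1.08 over the axoneme genes under the label reading. Turned, the medians were -0.92 and -0.46, and none of these genes passed. The pachytene list was used on these arrays before, and Rsph1 is counted in both lists.

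Slc2a3, a glucose transporter, had the highest difference of all genes. It lay at 1.59, 2.47, 3.09 and 1.48 at 15 days and at 0.32, -0.17, -2.36, 0.08 and 0.61 at 12 days. The ages did not overlap, and 12-day replicate 3 stood far below the other 4 arrays of its age. The difference was 3.42 (SE 0.56, adjusted p = 0.023), or 10.7-fold, and turned it was -0.89 (adjusted p = 0.84). Without replicate 3 it was 2.33 and not called (adjusted p = 0.079), and it was not called without 15-day replicate 2 or 3.

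Cfap206, a radial spoke protein of motile cilia, lay at 3.28, 3.61, 2.68 and 1.91 at 15 days and at -0.10, 0.37, -0.91, -0.10 and -0.16 at 12 days. Its mean of 2.87 at 15 days was the highest of any named gene, and the 12-day arrays lay on both sides of 0. The difference was 3.14 (SE 0.43, adjusted p = 0.012) and turned -2.60 (adjusted p = 0.21). Among the 12 highest genes its difference changed least in size between the readings. Without 12-day replicate 3 the label-reading difference was 2.50 (adjusted p = 0.066) and the turned one -3.24 (adjusted p = 0.032).

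The other called axoneme genes also kept the ages apart on every array with a value. Rsph1, of the radial spoke head, lay from 1.01 to 2.07 at 15 days and from -1.16 to 0.72 at 12 days, a difference of 2.33 (adjusted p = 0.024; turned, -1.13). Ccdc65, of the nexin-dynein regulatory complex, lay from 0.99 to 2.31 and from -1.14 to 0.28, a difference of 2.23 (adjusted p = 0.025; turned, -1.37). Cfap52 differed by 1.83 (adjusted p = 0.029; turned, -1.69) and Rsph3a, another radial spoke gene, by 1.95 (adjusted p = 0.037; turned, -1.17). Rsph3a has a near-identical copy, Rsph3b, whose RNA can bind the same probe. Over the leave-one-out fits the number of axoneme genes called higher ran from 0, with 12-day replicate 3 left out, to 7. The lowest median was 0.87, with 15-day replicate 2 left out, and the highest 1.27, with 12-day replicate 2 left out. For the pachytene markers they were 1.58 and 2.92, with 12-day replicates 3 and 2 left out.

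**Figure D2:**
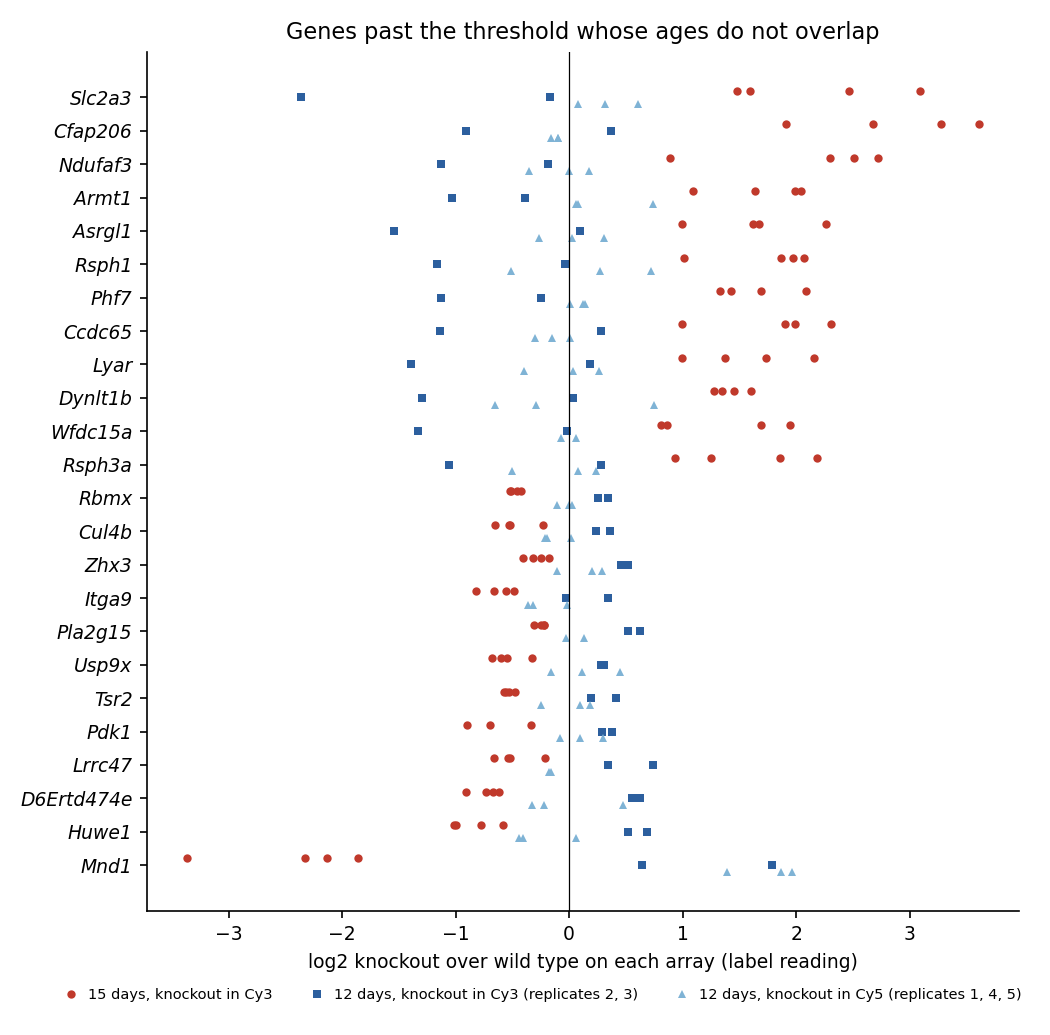
Log2 knockout over wild-type ratio on each array, under the label reading, of the 12 genes with the highest and the 12 with the lowest difference among those past the threshold whose ages did not overlap. Red circles are the 4 arrays at 15 days, blue squares 12-day replicates 2 and 3 and light triangles replicates 1, 4 and 5; Slc2a3 at -2.36 shows the lowest 12-day value and Mnd1 is the one gene with all 5 arrays of 12 days far above 0.

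Several other genes of high difference are known from mitochondria, nucleolus or cytoskeleton. Ndufaf3, which helps build complex I of the respiratory chain, lay at 2.30, 2.51, 2.72 and 0.89 at 15 days and between -1.13 and 0.17 at 12 days. Its difference was 2.77 (SE 0.44, adjusted p = 0.021; turned, -1.45). Asrgl1, an asparaginase, differed by 2.36 (adjusted p = 0.025; turned, -0.91) and Lyar, a nucleolar protein abundant in germ cells, by 2.17 (adjusted p = 0.029; turned, -0.96). Dynlt1b, a dynein light chain with near-identical copies, differed by 2.06 (adjusted p = 0.029; turned, -0.79), and the protease inhibitor Wfdc15a by 2.0 (adjusted p = 0.043; turned, -0.65). In all 5 of these genes 12-day replicate 3 was the lowest array. Without it their differences were 2.29, 1.54, 1.38, 1.39 and 1.35 in that order, and none was called.

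Among genes with a lower knockout ratio at 15 days, Mnd1 stood far from the rest. The 12 named by rule are those of lowest difference whose ages did not overlap, and apart from Mnd1 they ran from -1.45 for Huwe1 to -0.78 for Rbmx. Called genes whose ages overlapped, named after their values were seen, lay lower than Huwe1, among them Mef2d at -1.96, Zfp708 at -1.94, D1Ertd471e at -1.92, Ammecr1l at -1.73 and the oocyte growth factor gene Gdf9 at -1.64. Huwe1, an X-linked ubiquitin ligase, lay at -1.01, -0.78, -1.0 and -0.58 at 15 days and at -0.44, 0.69, 0.52, 0.06 and -0.41 at 12 days. The nearest arrays of the 2 ages were 15-day replicate 4 and 12-day replicate 1. The difference was -1.45 (SE 0.20, adjusted p = 0.012; turned, 0.24), and it was -1.36 and not called without 12-day replicate 2 (adjusted p = 0.068). D6Ertd474e lay at -1.32 (turned, 0.15), the leucine-rich repeat gene Lrrc47 at -1.02 (turned, -0.06) and the pyruvate dehydrogenase kinase Pdk1 at -0.98 (turned, 0.31). Pla2g15, a lysosomal phospholipase, lay at -0.82 (turned, -0.32), the integrin Itga9 at -0.79 (turned, 0.48) and the transcriptional repressor Zhx3 at -0.78 (turned, -0.20). These 6 were called in 2 to 4 of the leave-one-out fits, and each was lost without 12-day replicate 2 and without 12-day replicate 3.

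Under the label reading X-linked genes were called in 1 direction alone. Of 188 tested, 8 were lower at 15 days (4.26%) and 0 higher, against 30 of 5881 genes on the other chromosomes lower (0.51%) and 101 higher (1.72%). The 8 were Huwe1, Tsr2, Usp9x, Cul4b, Rbmx, Xlr3c, Slc6a8 and Dynlt3, of which Dynlt3 (-0.68) was named after its value was seen. A fit without the dye term sets the 15-day arrays against all 5 arrays of 12 days. Huwe1, Cul4b, Xlr3c and Dynlt3 were not called in it. The ages did not overlap in that direction for 27 of the 188 (14.4%) and for 193 of the 5881 (3.28%). The median difference was -0.22 on the X and from -0.01 to 0.11 on the 19 autosomes. Of the X-linked genes 23.9% had a difference above 0, and on the autosomes 47.7% to 62.1%. With the sign turned the X median was 0.06 and the autosomes ran from -0.07 to 0.01, with 60.6% of X-linked genes above 0 against 36.6% to 50.7%, and no X-linked gene was called.

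**Figure D3:**
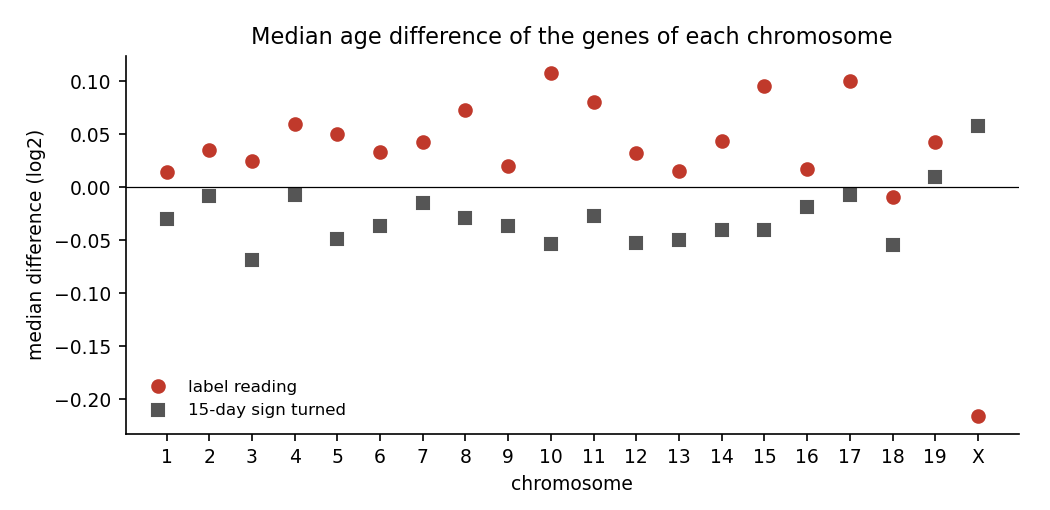
Median difference between the ages (15 days minus 12 days, log2 scale) over the genes tested on each chromosome, as red circles under the label reading and grey squares with the 15-day sign turned. The X lies at -0.22 and 0.06, outside the range of the 19 autosomes under either reading.

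Members of the X-linked group varied in how far the 2 ages stood apart. Tsr2, a ribosome biogenesis factor, lay between -0.57 and -0.48 at 15 days and between -0.25 and 0.41 at 12 days, a difference of -0.83 (adjusted p = 0.032; turned, 0.23). Rbmx, an RNA-binding protein with autosomal relatives, lay between -0.53 and -0.42 and between -0.10 and 0.34, a difference of -0.78 (adjusted p = 0.028; turned, 0.18). Cul4b, a ubiquitin ligase scaffold, differed by -0.78 (adjusted p = 0.043; turned, 0.18), and the deubiquitinase Usp9x, which has a copy on the Y, by -0.83 (adjusted p = 0.049; turned, 0.25). Slc6a8, the creatine transporter, differed by -0.71 (adjusted p = 0.048; turned, 0.47). In Xlr3c, of a lymphocyte-regulated gene family with near-identical copies, the ages overlapped at a difference of -0.88 (adjusted p = 0.038; turned, -0.00). Array by array the X median was -0.09, -0.21, -0.11 and -0.11 at 15 days and -0.05, 0.02, 0.14, -0.01 and 0.05 at 12 days. The number of X-linked genes lower ran from 0 to 18 over the leave-one-out fits. The median was -0.26 and -0.19, and turned 0.0037 and 0.10, with 12-day replicate 2 and then replicate 3 left out.

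The large housekeeping groups held no call once the 15-day sign was turned, and their label-reading counts stand beside 1.64% of all genes called higher. Of 55 respiratory chain genes 2 were higher, Sdhd of complex II (1.12, adjusted p = 0.024; turned, -0.17) and Ndufb5 of complex I (0.85, adjusted p = 0.048; turned, -0.09). In both genes the ages overlapped under the label reading. The median of the 55 was 0.45 under the label reading and -0.09 turned. Array by array their median log ratio ran from 0.11 to 0.365 at 15 days. At 12 days it ran from -0.395 on replicate 1 to 0.369 on replicate 5, above every 15-day array. Of 42 mitochondrial ribosomal protein genes 1 was higher, Mrpl24 (0.97, adjusted p = 0.043; turned, -0.36), and the median was 0.24 (turned, -0.08). Their array medians ran from 0.12 to 0.25 at 15 days and from -0.25 to 0.17 at 12 days. None of 72 cytosolic ribosomal protein genes passed, while 69 of 72 had a difference above 0, beside 54.5% of all genes. Their median was 0.32. Turned, it was -0.09, with 22 of 72 above 0 beside 44.8% of all genes. The germ cell form Rpl39l lay at 1.19 (adjusted p = 0.066; turned, -0.56). These ribosomal genes have many processed copies whose probes cannot be told apart. Their median was -0.86 on 12-day replicate 1 and 0.42 on 12-day replicate 5, with the 4 arrays at 15 days between them at 0.07 to 0.32. None of 37 proteasome genes passed, with a median of 0.22 (turned, -0.09). Their array medians ran from 0.11 to 0.20 at 15 days and from -0.10 to 0.25 at 12 days, highest on replicate 5.

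**Figure D4:**
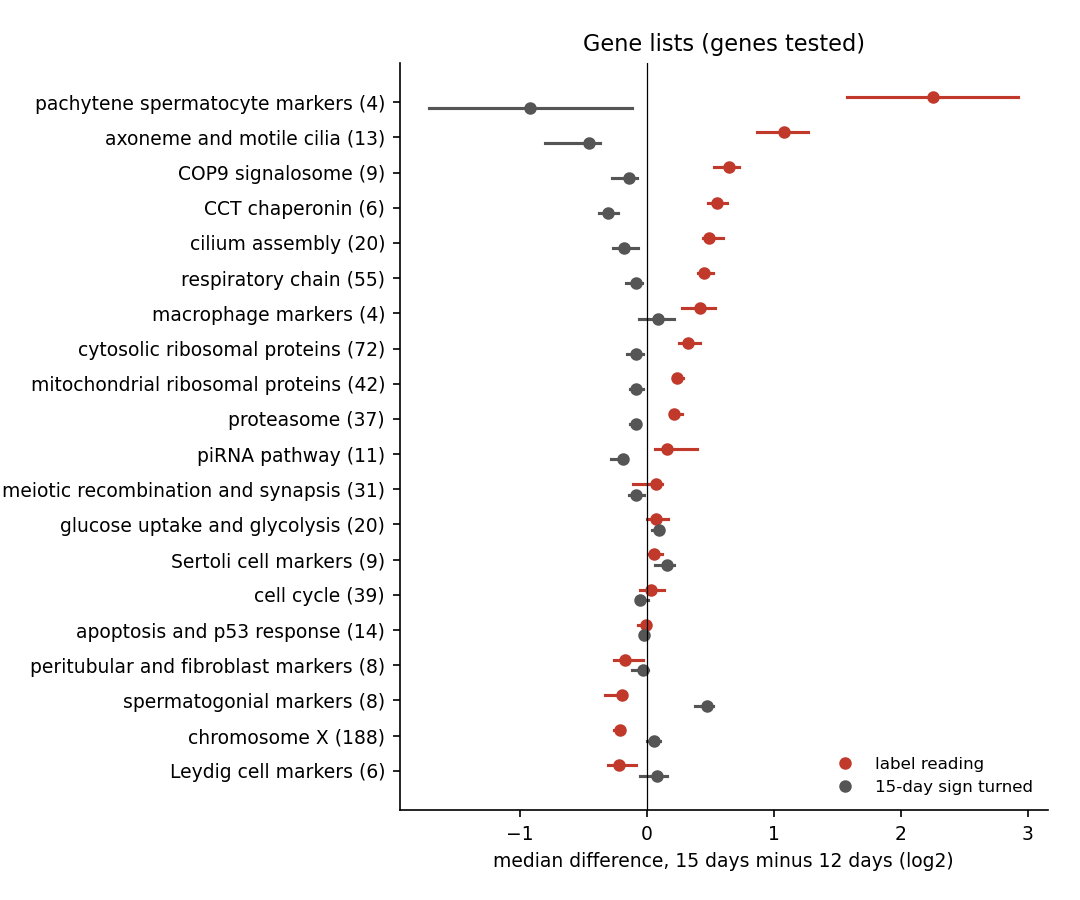
Median difference between the ages over the tested genes of each list with at least 4 of them (number in parentheses), in red under the label reading and in grey with the 15-day sign turned; bars span the lowest and highest median over the fits that left out 1 array. The pachytene list runs from 1.58 to 2.92 and turned from -1.72 to -0.12, and the chromosome X list from -0.26 to -0.19.

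Other germ cell and cell cycle lists are read against the same shares, 1.64% of all genes called higher and 0.635% lower. The piRNA pathway keeps transposons silent in the germ line, and 2 of its 11 genes tested were higher. Tdrd9, a helicase of that pathway, lay at 0.85, 1.23, 0.54 and 0.52 at 15 days and between -0.52 and 0.46 at 12 days (1.22, adjusted p = 0.025; turned, -0.35). Gtsf1, a cofactor of PIWI proteins, lay from 0.75 to 1.07 and from -0.58 to 0.13 (1.07, adjusted p = 0.029; turned, -0.62). The median of the 11 was 0.16 (turned, -0.19). Of 39 cell cycle genes the securin gene Pttg1 alone passed (0.96, adjusted p = 0.030; turned, -0.06), and none of the 14 apoptosis and p53 response genes did. Of 20 genes of glucose uptake and glycolysis, Slc2a3 was higher and Pdk1 lower, with a median of 0.07 (turned, 0.10). Without 12-day replicate 3, Tdrd9 had an adjusted p of 0.13, Gtsf1 of 0.19 and Pttg1 of 0.17.

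Spermatogonial markers lay on the other side from the 4 pachytene markers tested under each reading. No spermatogonial marker passed, beside 2.28% of all genes called in either direction under the label reading. All 8 tested had a difference below 0 under the label reading, with a median of -0.20, and above 0 with the sign turned, with a median of 0.47. Of all genes 54.5% lay above 0 under the label reading and 44.8% turned. Of the 31 meiotic recombination and synapsis genes 17 lay above 0 under the label reading and 12 turned. Etv5, a transcription factor that maintains spermatogonial stem cells, lay at -1.02, -0.85, -1.96 and -0.96 at 15 days and at -1.19, 0.61, 0.04, -0.22 and 0.20 at 12 days. The ages overlapped at 12-day replicate 1 alone, and the difference was -1.52 (SE 0.39, adjusted p = 0.067; turned, 0.87, adjusted p = 0.75). Ccnd1, a cyclin of dividing spermatogonia, lay at -0.47 (adjusted p = 0.21; turned, 0.36) and Uchl1 at -0.21 (adjusted p = 0.52; turned, 0.51). Over the leave-one-out fits the median ranged from -0.33 to -0.18, and turned from 0.38 to 0.52. A spermatid gene, Txndc2, was the only one of its list tested and lay at -1.40 (adjusted p = 0.068; turned, 0.22).

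With the 15-day sign turned no gene passed, and those of smallest p whose ages did not overlap are given as values. Csk, the kinase that restrains SRC family kinases, lay at -0.64, -1.16, -1.04 and -0.83 at 15 days as labelled and at 0.29, -0.41, -0.48, 0.13 and 0.31 at 12 days. Turned, its difference was 1.36 (SE 0.18, adjusted p = 0.088), and under the label reading -0.47 (adjusted p = 0.17), with no overlap either way. Aurkb, the Aurora kinase of chromosome segregation, had a turned difference of 1.56 (adjusted p = 0.64; label reading, -0.62), and it passed at 1.90 without 15-day replicate 4 (adjusted p = 0.044). The kinase gene Pak4 lay at 0.58 (label reading, 0.02) and Pcx, pyruvate carboxylase, at 0.62 (label reading, -0.38). Spryd7 lay at 1.41 (label reading, -0.56) and the receptor pseudogene Olfr75-ps1 at 1.95 (label reading, -1.17). On the lower side stood Cfap206, Ccdc74a (-1.22), Cog6 of the Golgi (-1.10), Cfap52, B9d1 of the ciliary transition zone (-1.15) and Rangrf (-0.92). Of these 6, all but Cog6 (0.83, adjusted p = 0.078) were higher and called under the label reading, B9d1 at 1.69 (adjusted p = 0.012), Rangrf at 1.20 and Ccdc74a at 1.10. Without 12-day replicate 3, 25 features passed with the sign turned.

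Some genes had a knockout log ratio farther from 0 at 12 days, so that the sign of their difference does not depend on the reading. Of the 6144 genes, 321 had every 12-day array on 1 side of 0. Of these 321, 140 had a mean farther from 0 at 12 than at 15 days. Over all genes, 38.6% kept the sign of their difference under both readings, and these counts were not tested. Emc7, of the endoplasmic reticulum membrane complex, lay at 0.66, 0.41, 0.23, 0.66 and 0.34 at 12 days and at -0.15, 0.10, 0.11 and -0.08 at 15 days. The ages did not overlap under either reading, and the difference was -0.33 (adjusted p = 0.30) and turned -0.32 (adjusted p = 0.80). Cdhr4, a cadherin-related gene, lay at 1.31 (adjusted p = 0.11) and turned at 1.26 (adjusted p = 0.74), where 12-day replicate 2 stood at -2.10 against -0.47 to -0.12 on the others. Trappc10 of vesicle transport lay at 0.48 and 0.37, and Pdgfrb, the receptor of peritubular cells, at 0.57 and 0.40. Sppl2b lay at 0.36 and 0.24 and Ptdss1, which makes phosphatidylserine, at 0.35 and 0.37. The 12-day mean of Emc7 lay above 0 and those of the other named genes below it. None of the 6 passed under either reading.

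Markers of somatic cells gave no call at either sign, on short lists and beside 2.28% of all genes called in either direction under the label reading. None of 9 Sertoli, 6 Leydig, 8 peritubular and fibroblast, 4 macrophage and 3 endothelial and blood genes passed. Their medians were 0.06, -0.22, -0.17, 0.42 and -0.21 under the label reading and 0.16, 0.08, -0.03, 0.08 and 0.08 turned. The summed levels of these markers could not be formed from ratios, and their part in the results was not tested. The members nearest to the threshold were Lum of the matrix (0.78, adjusted p = 0.075; turned, -0.36), the collagen gene Col3a1 (-0.62, adjusted p = 0.098; turned, -0.18) and the macrophage lysozyme Lyz2 (0.64, adjusted p = 0.11; turned, -0.58). The Leydig cell factor Nr5a1 lay at -0.46 (adjusted p = 0.28; turned, 0.39) and the Sertoli cell factor Kitl at 0.29 (adjusted p = 0.38; turned, 0.16).

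The width of the ratios on an array does not depend on any sign. The interquartile range of the log2 ratios was 0.43, 0.43, 0.55 and 0.31 at 15 days and 0.43, 0.33, 0.22, 0.19 and 0.48 at 12 days. The ages overlapped, at 0.43 ± 0.098 (SD, n = 4) against 0.33 ± 0.13 (SD, n = 5). The difference of 0.10 had p = 0.27 by an exact two-sided permutation test over the 9 arrays. The alternatives tried gave p from 0.20 to 0.57.

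Single arrays decided most of the calls. Without 15-day replicate 3 the label-reading count was 10 features, without replicate 1 it was 23 and without replicate 2 it was 35, while without replicate 4 it was 302. Without 12-day replicates 2, 3 and 4 it was 54, 50 and 67, and without replicates 1 and 5 it was 371 and 485. Of the 140 genes called with all arrays, 5 were called again without 15-day replicate 3 and 11 without 12-day replicate 3, and 140 without 12-day replicate 1 or 5. Mnd1, Phf7 and Armt1 were called in all 9 of these fits, and Dnaaf2 and Mrgbp (1.52), a chromatin protein named after its value was seen, in 8. Under the turned reading the count was 25 without 12-day replicate 3, 3 without 15-day replicate 4 and 0 without each of the others. At the threshold itself, Zfp735 (-0.81) and Pih1d1 (0.74) shared the largest limma adjusted p among called genes, 0.04999, with other genes. Ybx3 (1.82) and Cdkl2 (0.88) stood just outside, at 0.05027. The 4 arrays at 15 days carry title numbers of 1 range and the 12-day arrays those of other ranges, so age and whatever those numbers stand for cannot be told apart.

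**Figure D5:**
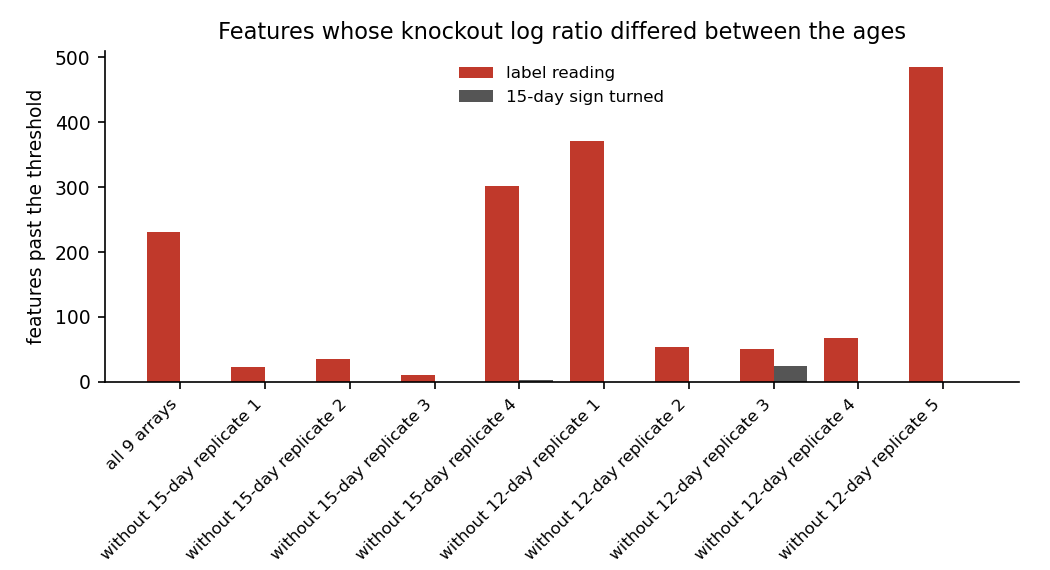
Number of the features tested whose knockout log ratio differed between the ages (limma, adjusted p under 0.05), with all 9 arrays and without each array in turn, in red under the label reading and in grey with the 15-day sign turned. The count is 231 with all arrays and lies between 10 (15-day replicate 3 left out) and 485 (12-day replicate 5 left out); turned, the highest bar is 25 without 12-day replicate 3.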

How the data were processed

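Log2 ratios, 1 value per probe and array, were deposited by the authors. Per the series' design text, arrays were scanned with GenePix 3.0, spots were flagged and ratios were median centred. No source used here states the log base (read as log2), the background correction or which dye is the numerator. Of 16128 probes, 9604 had 1 gene in the platform annotation, 213 several and 6311 none, and 11628 to 14724 had a value on an array. Of the probes with 1 gene, 98.9% matched RefSeq (GRCm38.p6). Probes of a gene were averaged.

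The difference between the ages was fitted with limma 3.58.1 in R 4.3.3 (lmFit, eBayes, two-sided, Benjamini-Hochberg over 9851 features), with an effect per age and a shared dye effect, and checked on simulated data. Members, lists and rules were chosen with earlier results of these data known. The lists of cilium assembly, CCT chaperonin and COP9 signalosome genes were added after values were seen. Named were, under the label reading, the 12 highest and 12 lowest called genes without overlap of the ages, up to 4 genes of smallest p per list and 6 X-linked genes. Turned, they were the 6 of smallest p in each direction, and 6 with a log ratio farther from 0 at 12 days. Alternatives changed the dye term, normalization, filter, probe averaging, weights, block and threshold, or left out an array. The number of arrays limits the precision.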

Additional observations from a re-analysis of the deposited data

Results flagged for a closer look

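Under the label reading the knockout effect differed between the ages by limma (adjusted p under 0.05) for 129 features that were higher at 15 days and 102 that were lower, and with the sign turned for none. Each named gene that differed is listed here with its difference, 15 days minus 12 days on the log2 scale. Axoneme and cilium genes lay at 3.14 (Cfap206), 2.33 (Rsph1), 2.23 (Ccdc65), 1.95 (Rsph3a), 1.83 (Cfap52), 1.69 (B9d1) and 1.14 (Dnaaf2). Meiotic and piRNA genes lay at -3.64 (Mnd1), 1.60 (Psmc3ip), 0.92 (Syce1), 1.22 (Tdrd9) and 1.07 (Gtsf1). Slc2a3 lay at 3.42, Armt1 at 2.40, Asrgl1 at 2.36, Phf7 at 2.33, Lyar at 2.17, Dynlt1b at 2.06, Wfdc15a at 2.0, Rangrf at 1.20, Ccdc74a at 1.10 and Pttg1 at 0.96. Mitochondrial genes lay at 2.77 (Ndufaf3), 1.12 (Sdhd), 0.97 (Mrpl24) and 0.85 (Ndufb5). X-linked genes lay at -1.45 (Huwe1), -0.88 (Xlr3c), -0.83 (Tsr2 and Usp9x), -0.78 (Cul4b and Rbmx) and -0.71 (Slc6a8). The other lower genes lay at -1.32 (D6Ertd474e), -1.02 (Lrrc47), -0.98 (Pdk1), -0.82 (Pla2g15), -0.79 (Itga9) and -0.78 (Zhx3).

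Single arrays stood apart from the others of their age for 16 of 201 sets of values by Dixon's test (8.0%). For independent sets drawn at random chance gives about 1 in 20. These sets are of the named genes, mostly picked by their values on the same arrays, and those of 12 days mix both dye orientations. The 2 rates therefore cannot be compared strictly. The values below are log2 knockout over wild type under the label reading. On 12-day replicate 3 these were Slc2a3 at -2.36, Wfdc15a at -1.33, Ptdss1 at -0.60 and Rangrf at -0.21. On 12-day replicate 2 they were Rpl12 at -1.34 and Pdgfrb at -0.92, and on 12-day replicate 1 Star at -1.38. On 15-day replicate 4 the 5 values Sdhd at 0.23, Ndufb5 at 0.15, Mrps18b at 0.04, Spryd7 at -0.07 and Pak4 at -0.18 all lay nearer to 0 than on the other arrays. On 15-day replicate 3 they were Etv5 at -1.96, Aifm1 at -0.69 and Cdhr4 at 0.38, and on replicate 2 Gtsf1 at 1.07.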

How the results depend on the processing

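Under the label reading 231 features were called with all arrays. The count was 4 at an adjusted p under 0.01 with at least a 1.5-fold difference, 443 with arrays of the shared dye orientation alone, 499 with the trend along probe order removed, 589 with the title ranges as a random block, 632 with arrays scaled to 1 spread, 708 after quantile normalization and 1509 with array quality weights, whose estimation did not converge. Without turning any array by its dyes it was 864, and with the 15-day sign turned 0. Without the dye term it was 247, and 116 of the 231 features called in the main fit were called again. Leaving out 1 array gave 10 to 485. The share of calls that were higher moved from 55.8% to 68.5% without 12-day replicate 2 and to 24.0% without replicate 3. With the sign turned the count was 0, and 4 with quality weights, 4 after quantile normalization, 1 each without the dye term, with the block and with scaled arrays, and 0 to 25 without 1 array. The difference in interquartile range lay between 0.06 and 0.14, and the number of features with 1 sign under both readings, 3796 with all arrays, between 3398 and 4691 without 1 array. That number was 2616 without the dye term, 5198 after quantile normalization and 5412 with scaled arrays.

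Leaving the ratios unturned reversed all 39 named calls. That fit leaves 12-day replicates 2 and 3 unturned as well as the 15-day arrays. All arrays behind the main estimate thus take the opposite sign, so a reversal is largely built into this setting. The fit also has no dye term, so it sets the 15-day mean against all 5 arrays of 12 days. The values became Slc2a3 -2.87, Cfap206 -2.91, Ndufaf3 -2.33, Armt1 -2.15, Asrgl1 -1.94, Rsph1 -2.07, Phf7 -1.97, Ccdc65 -1.88, Lyar -1.79, Dynlt1b -1.64, Wfdc15a -1.66, Rsph3a -1.67, Mnd1 1.86, Huwe1 1.24, D6Ertd474e 0.98, Lrrc47 0.84, Pdk1 0.72, Tsr2 0.65, Usp9x 0.58, Pla2g15 0.51, Itga9 0.83, Cul4b 0.68, Zhx3 0.41, Rbmx 0.61, Ccdc74a -1.12, Cfap52 -1.69, B9d1 -1.42, Rangrf -1.08, Psmc3ip -1.40, Syce1 -0.67, Tdrd9 -1.13, Gtsf1 -0.93, Dnaaf2 -0.89, Pttg1 -0.76, Mrpl24 -0.75, Sdhd -0.93, Ndufb5 -0.70, Xlr3c 0.67 and Slc6a8 0.51. Other settings changed no sign of a named label-reading call, apart from turning the 15-day sign, which reversed 35 of the 39 and left 4 with the same sign and no call. Named calls were lost 180 times over the leave-one-out fits and 18 times under the other settings. Of the 140 called genes, 58 were called under all 10 other settings. No paired analysis was possible because the labels carry no replicate numbers and the arrays of the 2 ages come from different mice.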

Other observations

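Gene groups added after the values were seen repeat the direction of the axoneme genes and are descriptions only. Of 20 cilium assembly genes tested, 4 were higher at 15 days under the label reading by limma (adjusted p under 0.05) and 0 lower, where 1.64% of all genes were higher. They were B9d1 of the transition zone (1.69; turned, -1.15), Wdr35 (1.55; turned, -0.38) and Ift122 (1.10; turned, -0.45) of the intraflagellar transport complex that returns cargo to the cell body, and Bbs2 of the BBSome (0.91; turned, -0.25). The median over the 20 was 0.49, and -0.18 turned. Of 6 subunits of the CCT chaperonin, which folds tubulin and actin, Tcp1 (1.22; turned, -0.40) and Cct7 (0.81; turned, -0.30) were higher, and the median was 0.55 (turned, -0.31). Of 9 subunits of the COP9 signalosome, a regulator of cullin ubiquitin ligases, Cops3 (1.15; turned, -0.29) and Cops8 (0.99; turned, -0.29) were higher, and the median was 0.65 (turned, -0.14).

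Probes with no gene or several genes listed differed in the other proportion from genes. Of 3707 such features, 28 (0.755%) were higher at 15 days and 63 (1.7%) lower under the label reading, against 101 and 39 of the 6144 genes.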
